A study of Rattus norvegicus with 12 samples.

Results

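The transcriptome of NRK cells without ATG5 was compared with that of wild-type (WT) NRK cells, with 4 RNA-seq libraries of ATG5KO and 4 of WT, which are 8 of the 12 libraries of the series. Members were taken by the labelled genotype alone. NRK is an established line of normal rat kidney cells, which the labels call epithelial and the text of the study calls fibroblastic. The ATG5KO line was made with CRISPR-Cas9 and grown from single sorted cells, so ATG5 loss and differences between a clone and its parental culture cannot be told apart. Both genotypes were grown untreated in complete medium, with 1 dish per library. The remaining 4 libraries, of a VAMP7KO line made in the same way from the same cells, were used for the estimate of the spread and as a further knockout line to set beside ATG5KO.

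ATG5 is joined to ATG12 in a conjugate that attaches the ATG8 family proteins, LC3 among them, to lipid. This step is needed for the membranes of the autophagosome to grow and close around cytoplasm, which is then delivered to the lysosome. Cells without ATG5 lose this bulk degradation route, and the conjugation machinery also serves some forms of secretion and the handling of single-membrane vesicles.

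Between 21090858 and 28624568 counts were recorded per ATG5KO library and between 27671839 and 31525111 per WT library. Libraries fell into 2 sets, replicates 1 and 2 against replicates 3 and 4. Within a set, the chi-square of the counts per gene between libraries of 1 genotype was 3.512 to 11.99 in ATG5KO and 3.101 to 13.73 in WT, and between the sets it was 126.1 to 239.3. The methods speak of independent replicates, but libraries of a set agreed so closely that each genotype had nearer to 2 than 4 separate measurements. Nothing in the labels says what the sets are, and p-values from 4 libraries rest in part on a spread that may be technical. For this reason a fit with the counts of each set summed is given beside the counts of changed genes. Errors and p-values of single genes come from the fit of 4 libraries per genotype unless said otherwise, and may therefore be too small. Atg5 itself was not analysed here, because the identifier that carries it in the table is not known. Vamp7, the gene targeted in the other line, was at 109.3, 110.7, 115.8 and 108.7 CPM (counts scaled to 1000000 per library) in WT replicates 1 to 4, at 51.89, 49.36, 41.56 and 42.16 CPM in VAMP7KO and at 125.1, 128.7, 128.9 and 130.0 CPM in ATG5KO. The VAMP7KO libraries were thus the low ones, and those of ATG5KO lay above WT with no overlap, by 0.21 ± 0.07 (SE) on the log2 scale (adjusted p = 0.0255, edgeR's quasi-likelihood test, 0.305 with sets summed, and 0.0642 to 0.0816 without ATG5KO replicate 3 or 4 or WT replicate 1, 2 or 4).

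The ATG5KO line differed from WT in 6527 of 13141 genes tested, 49.7% (adjusted p under 0.05 in edgeR's quasi-likelihood test, with the set as a block and adjustment by the method of Benjamini and Hochberg). Of these, 3335 were higher in ATG5KO (25.4% of the genes tested) and 3192 were lower (24.3%). At least 2-fold changes were found in 1905 genes (14.5%), 1145 higher (8.71%) and 760 lower (5.78%). In 1804 of the 1905 the direction was the same in all 4 pairs of equal replicate number, and 1507 of the 1797 that could be tested in both sets passed the test in the same direction in each set alone. The libraries of ATG5KO and WT did not overlap at all for 3700 genes (28.2%), with ATG5KO higher for 14.9% of the genes tested and lower for 13.3%. With counts summed within each set, 2101 genes changed and 1290 changed at least 2-fold. The ATG5KO effect differed between the sets for 3798 genes (28.9%), including 596 of the 1905.

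A symbol was known for 1976 of the 20842 genes in the table, 1737 of them tested. These symbols come from the lists of changed genes that the study drew up from these same libraries, of which the part on genes strongly lower in ATG5KO was read and the rest of the lower genes was not. Among tested genes with a symbol, 57.5% were called higher and 26.9% lower, with a median log2 fold change of 1.06 against 0.01 for all genes tested. Counts over named genes are to be read against these shares, and such a count is not independent evidence of its direction. None of the 50 autophagy genes looked for had a known identifier.

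**Figure D1:**
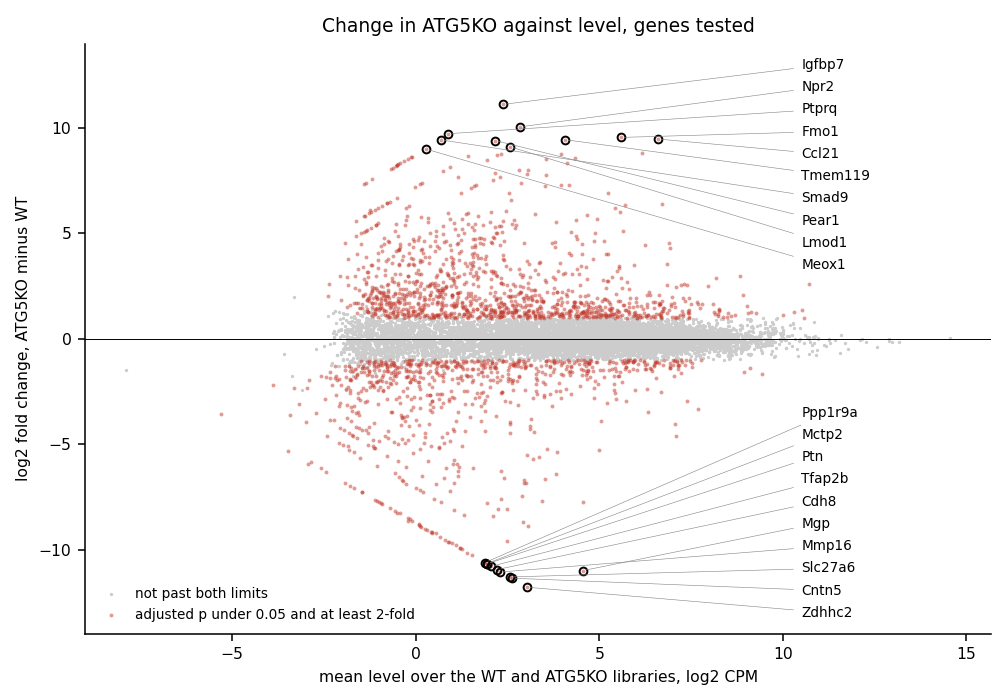
Log2 fold change of ATG5KO against WT (vertical axis) against the mean level over the 8 libraries in log2 CPM (horizontal axis) for the 13141 genes tested. Red points mark the 1905 genes that changed at least 2-fold, and circles mark the 10 highest and 10 lowest of the named genes, where a gene at 0 counts in either genotype has a fitted value that depends on the prior count and is no bound.

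Some genes were at the floor of detection, 3 counts or fewer, in every library of either genotype. In WT, 66 genes were at this floor while ATG5KO was at 1 CPM or more, and 45 of the 66 were at the floor in VAMP7KO too. In the other direction 89 genes were at the floor in ATG5KO and at 1 CPM or more in WT, with 41 of the 89 at the floor in VAMP7KO.

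Igfbp7 (ENSRNOG00000002050), a secreted protein that binds insulin-like growth factors, had the highest fitted fold change among genes with a symbol, a rank that rests on a fit to WT libraries without a count. It had no count in any WT library and 8.315, 8.427, 12.75 and 12.3 CPM in ATG5KO, at least 102-fold higher against the floor of 3 counts per library, a bound below that of Tmem119 (323-fold), Ptgs2 (303-fold), Npr2 (139-fold) and Lmod1 (115-fold). Meox1, a homeobox factor of somite development, had no count in WT and 3.391, 2.011, 2.047 and 2.212 CPM in ATG5KO, at least 23.5-fold higher. Both genes also had no count in VAMP7KO, so ATG5KO was the genotype in which they were detected.

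Some of the strongest rises were in abundant transcripts. Ccl21 (ENSRNOG00000034290), a chemokine that guides lymphocytes and dendritic cells, was at 0.5743, 0.3809, 0.06571 and 0.07134 CPM in WT and at 237.6, 219.5, 164.1 and 158.0 CPM in ATG5KO. Its log2 fold change was 9.48 ± 0.22 (SE, adjusted p = 2.29e-11, edgeR's quasi-likelihood test, and 0.00155 with sets summed). Fmo1, a flavin-containing monooxygenase, went from 0.126 ± 0.117 CPM (SD, n = 4) to 96.8 ± 31.6 CPM, a log2 fold change of 9.56 ± 0.35. Every ATG5KO library was far above every WT library for both genes. Tmem119, a membrane protein known from bone-forming cells and microglia, reached 30.52 to 36.28 CPM in ATG5KO from at most 0.1039 CPM in WT, a ratio of pooled counts of 780 (95% exact counting interval 334 to 2400). Others of the 10 highest were Smad9, a mediator of BMP signals, the receptor Pear1 and the receptor-type phosphatase Ptprq.

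The lowest fitted fold changes among genes with a symbol were in genes with clear expression in WT and almost no reads in ATG5KO. Zdhhc2 (ENSRNOG00000022686), a palmitoyltransferase, was at 18.11, 19.25, 15.25 and 13.31 CPM in WT and had no count in ATG5KO, at least 135-fold lower. Cntn5, a contactin of the immunoglobulin superfamily, was at 16.22, 13.16, 10.42 and 9.346 CPM in WT and also had no count. Slc27a6, a fatty acid transport protein, was likewise without a count in ATG5KO, with WT at 22.26 and 20.5 CPM in replicates 1 and 2 and at 2.004 and 2.533 CPM in replicates 3 and 4. These 3 genes had no count in VAMP7KO either, and their levels in WT were lower in replicates 3 and 4.

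Mgp (ENSRNOG00000005695), the matrix Gla protein that inhibits calcification, separated the knockout lines. It was at 49.05, 48.52, 45.93 and 43.91 CPM in WT, at 0, 0, 0.03592 and 0.04607 CPM in ATG5KO and at 128.3, 182.5, 44.88 and 53.26 CPM in VAMP7KO. The ATG5KO libraries were the low ones, with a ratio of pooled counts of WT to ATG5KO of 2340 (counting interval 648 to 19300). The difference between the knockout lines was significant (adjusted p = 7.99e-09, edgeR's quasi-likelihood test). Ptn, the heparin-binding growth factor pleiotrophin, was at 13.38, 13.89, 1.446 and 2.033 CPM in WT and at 0 in ATG5KO, at least 62.8-fold lower, and Mmp16, a membrane-type matrix metalloproteinase, was at least 79.8-fold lower.

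Genes of the skeletal muscle programme were higher in ATG5KO. Of 43 listed genes tested, 37 rose, 5 fell and 1 did not pass, with a median log2 fold change of 1.64 over the 43. Among tested genes with a symbol 57.5% were called higher and 26.9% lower, with a median of 1.06. With sets summed, 30 rises and 4 falls were called. The ATG5KO and WT libraries did not overlap for 31 higher and 5 lower members, beside 14.9% and 13.3% of all genes tested. That share was not computed for genes with a symbol, which come from lists of changed genes. How far the 31 exceed it is therefore not known. The summed level of the 43 was 348.2 to 351.5 CPM in WT replicates 1 and 2 and 1364 to 1477 CPM in ATG5KO replicates 1 and 2. In replicates 3 and 4 it was 280.8 to 285.3 CPM in WT and 803.3 to 804.2 CPM in ATG5KO.

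Myod1 (ENSRNOG00000011306), the myogenic regulatory factor that commits cells to the muscle lineage, was at 0.2365, 0.3809, 0.2957 and 0.2854 CPM in WT and at 21.6, 23.62, 14.87 and 15.34 CPM in ATG5KO. All ATG5KO libraries were high, and no count was found in VAMP7KO. The log2 fold change was 5.94 ± 0.18 (SE, adjusted p = 6.94e-09, edgeR's quasi-likelihood test, and 0.00286 with sets summed), with 6.16 and 5.68 in the sets. Musk, the kinase that organizes the neuromuscular junction, was at 0.2365, 0.1385, 0 and 0.107 CPM in WT and at 14.87, 15.47, 9.016 and 8.201 CPM in ATG5KO, a log2 fold change of 6.60 ± 0.29. Unc45b, the myosin chaperone of striated muscle, was at 3.577 to 7.787 CPM in ATG5KO from at most 0.06757 CPM in WT, a ratio of pooled counts of 166 (counting interval 64.3 to 610). Cdh15, the cadherin of myoblasts, had a log2 fold change of 5.10 ± 0.56. The more abundant Itga7, the laminin-binding integrin of muscle, rose from 45.1 ± 5.99 CPM (SD, n = 4) to 270.1 ± 48.3 CPM.

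The rise did not extend to all muscle genes. Dmd, which encodes dystrophin, was at 3.919, 3.532, 5.224 and 5.101 CPM in WT and at 0.04645, 0.06936, 0.1078 and 0 CPM in ATG5KO, with a ratio of pooled counts of 74.0 (counting interval 33.8 to 203). VAMP7KO was at 3.91 to 4.55 CPM, so the ATG5KO libraries stood apart from both other genotypes. Ryr1, the calcium release channel of the sarcoplasmic reticulum, fell by 3.73 ± 0.43 on the log2 scale, and Xirp2, an actin-binding protein of the sarcomere, fell by 4.95 ± 0.50. Mybpc1, a myosin-binding protein, was at 6.926 and 8.692 CPM in WT replicates 1 and 2 but at 0.03286 and 0.07134 CPM in replicates 3 and 4, and had no count in ATG5KO. Its difference therefore rests on replicates 1 and 2. Mymx, a small protein of myoblast fusion, had a log2 fold change of 0.64 and did not pass the test.

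The promoters of Musk, Des and Unc45b are shown because muscle regulatory factors such as MYOD1 bind E boxes. Sequences run from 250 bases before to 50 after the gene start in RefSeq's GRCr8 annotation, matched by symbol, and differ in build from the counts. Capitals mark CAGCTG, a single form of the E box, which reads the same on both strands and was found in 15.1% of 33469 promoters of this length. It was found in 17 of 33 listed muscle genes with a promoter, 14 of which rose and 2 of which fell, while of the 16 without it 13 rose and 3 fell.
Musk (chr5:77853486-77853785, plus strand): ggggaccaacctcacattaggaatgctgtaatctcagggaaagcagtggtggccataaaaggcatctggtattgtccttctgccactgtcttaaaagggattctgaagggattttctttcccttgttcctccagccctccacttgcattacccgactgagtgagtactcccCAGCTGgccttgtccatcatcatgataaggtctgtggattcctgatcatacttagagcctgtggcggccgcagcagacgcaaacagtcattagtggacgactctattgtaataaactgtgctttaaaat
Des (chr9:84299376-84299675, plus strand): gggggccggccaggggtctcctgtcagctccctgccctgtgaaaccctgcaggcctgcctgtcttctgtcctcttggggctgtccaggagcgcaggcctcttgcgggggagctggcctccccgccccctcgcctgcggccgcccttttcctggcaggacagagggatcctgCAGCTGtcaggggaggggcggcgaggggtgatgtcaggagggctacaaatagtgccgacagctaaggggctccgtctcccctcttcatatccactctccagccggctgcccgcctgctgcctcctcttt
Unc45b (chr10:68342761-68343060, plus strand): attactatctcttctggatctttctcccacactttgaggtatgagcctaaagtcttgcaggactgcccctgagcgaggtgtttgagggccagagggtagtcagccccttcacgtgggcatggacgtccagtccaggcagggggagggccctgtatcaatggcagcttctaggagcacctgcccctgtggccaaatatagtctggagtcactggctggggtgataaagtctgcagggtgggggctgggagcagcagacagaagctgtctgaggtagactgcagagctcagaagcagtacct
In Musk and in Des the match started 79 bases before the gene start, and no CAGCTG was in the Unc45b window. Other forms of the E box (CANNTG) were not marked or counted, and the Unc45b window holds CACCTG and CACGTG. Des is in the smooth muscle list, so it is not among the 33.

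**Figure D2:**
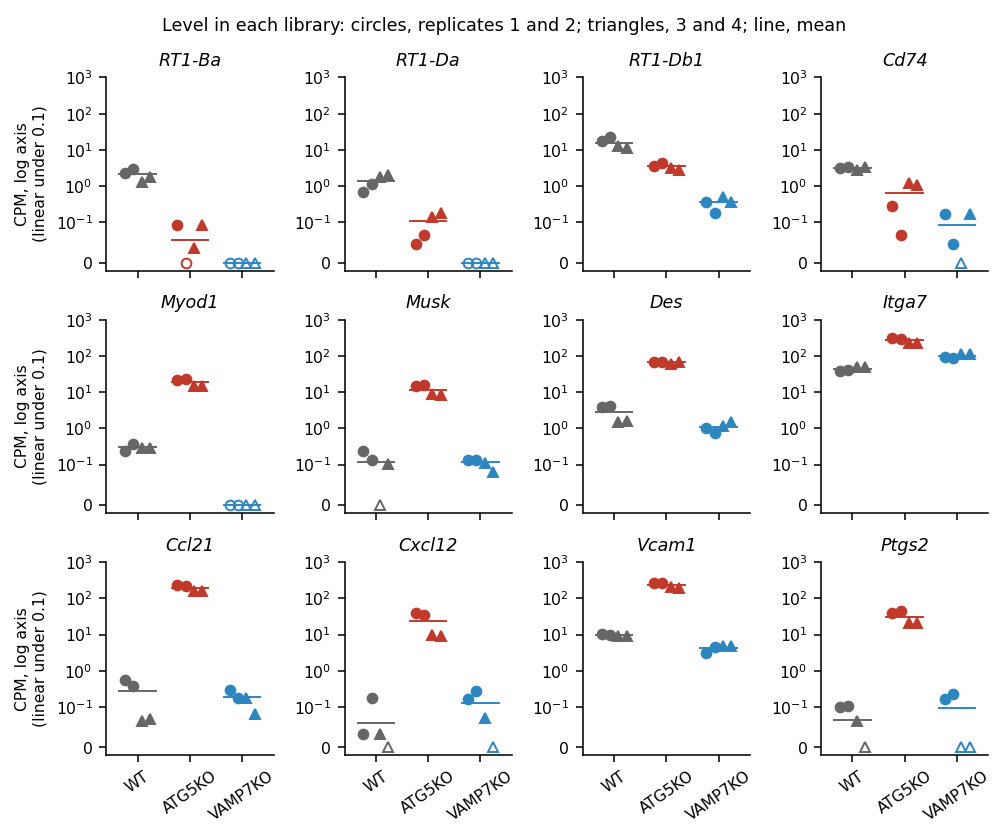
Level of 12 genes in each library, in CPM on a log axis that is linear under 0.1, for WT, ATG5KO and VAMP7KO. Circles are replicates 1 and 2, triangles replicates 3 and 4, open symbols libraries at 0 and lines group means. The MHC class II genes and Cd74 (top row) are lower in ATG5KO than in WT in every library, and the muscle genes (middle row) and inflammatory genes (bottom row) are higher.

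Genes of smooth muscle and of the SRF pathway, which couples actin dynamics to transcription, rose in 15 of 23 cases tested, fell in 2 and did not pass in 6, and 10 rises and 1 fall were called with sets summed. The median log2 fold change was 1.14, near the 1.06 of tested genes with a symbol, of which 57.5% were called higher. The summed level was 2163, 2364, 3242 and 3244 CPM in WT and 3768, 3914, 3318 and 3381 CPM in ATG5KO. It thus differed little between them in replicates 3 and 4. VAMP7KO was at 5625 to 7118 CPM, with 15 members higher and 2 lower than in WT. Des, the muscle intermediate filament desmin, was at 3.987, 4.086, 1.479 and 1.605 CPM in WT and at 69.5, 70.54, 60.63 and 66.67 CPM in ATG5KO, a log2 fold change of 4.63 ± 0.25. Synpo2, an actin-bundling protein of the Z disc, rose from 1.33 ± 0.394 CPM (SD, n = 4) to 39.6 ± 11.1 CPM, with log2 fold changes of 4.90 and 4.89 in the sets. Lmod1, the leiomodin of smooth muscle, was at 20.63, 14.7, 5.316 and 6.635 CPM in ATG5KO with 1 WT library above 0. Acta2, the smooth muscle actin, had a log2 fold change of 0.02 ± 0.30, and Ccn1, a matricellular target of SRF, had -0.14 ± 0.25. For Ccn1 the sets differed, with 199.5 and 253.3 CPM in WT and 334.9 and 379.0 CPM in ATG5KO replicates 1 and 2, and with 502.3 and 548.4 CPM in WT and 265.2 and 272.9 CPM in ATG5KO replicates 3 and 4.

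Mesenchymal genes, which encode matrix proteins and surface markers of fibroblasts, rose in 19 of 29 cases and fell in 4, with a median log2 fold change of 1.71. The share called higher among tested genes with a symbol was 57.5%, with a median of 1.06. With sets summed 17 rises and 1 fall were called. Thy1, a surface glycoprotein of fibroblasts, was at 0.4392, 0.8311, 0.06571 and 0 CPM in WT and at 196.6, 216.5, 82.47 and 77.77 CPM in ATG5KO, a log2 fold change of 8.81 ± 0.37. Pdpn, the membrane mucin podoplanin, was at 36.56, 38.18, 30.75 and 32.85 CPM in ATG5KO and at most 0.2424 CPM in WT, and had no count in VAMP7KO. Among the fibrillar collagens, Col3a1 rose from 174.9, 175.4, 56.94 and 58.11 CPM in WT to 1027, 1026, 558.5 and 572 CPM in ATG5KO, a log2 fold change of 2.99 ± 0.29. VAMP7KO was at 1334, 1307, 207.9 and 195.4 CPM, and the knockout lines did not differ for Col3a1 (adjusted p = 0.124, edgeR's quasi-likelihood test). Col1a1 rose by 1.39 ± 0.12 on the log2 scale and was higher in ATG5KO than in VAMP7KO (adjusted p = 7.3e-05, same test). Col6a1, a beaded filament collagen at 2166 to 2895 CPM in WT and 2325 to 2474 CPM in ATG5KO, did not pass the test, and the libraries overlapped. Mmp2, a gelatinase, fell by 4.87 ± 0.54, and Cdh2, the N-cadherin of mesenchymal cells, rose by 4.88 ± 0.46.

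Epithelial genes moved in both directions, with 12 of 25 higher and 8 lower, beside 57.5% and 26.9% of tested genes with a symbol. Another 5 did not pass, and the median log2 fold change was 0.32, against 1.06 over tested genes with a symbol. With sets summed 7 rises and 4 falls were called. Krt8, a keratin of simple epithelia and the most abundant of them, was at 646.2, 735.1, 852.8 and 874.5 CPM in WT and at 552, 658.6, 762.1 and 780.4 CPM in ATG5KO, and did not pass the test (adjusted p = 0.246, edgeR's quasi-likelihood test). Lamb3, a chain of the basement membrane protein laminin 332, was at 388.2, 388.9, 136.8 and 135.3 CPM in WT and at 10.59, 11.76, 8.98 and 9.031 CPM in ATG5KO, a log2 fold change of -4.60 ± 0.34. The desmosomal cadherin Dsc2 was at 24.02, 19.91, 13.5 and 9.025 CPM in WT and was left with 3 counts in 1 ATG5KO library, a ratio of pooled counts of 555 (counting interval 190 to 2700). Evpl, the envelope protein envoplakin, rose by 5.45 ± 0.52. Markers of both cell types the sources name were thus present in WT and ATG5KO, while Cdh1, Epcam, Krt18 and Vim had no known identifier and were not analysed here.

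**Figure D3:**
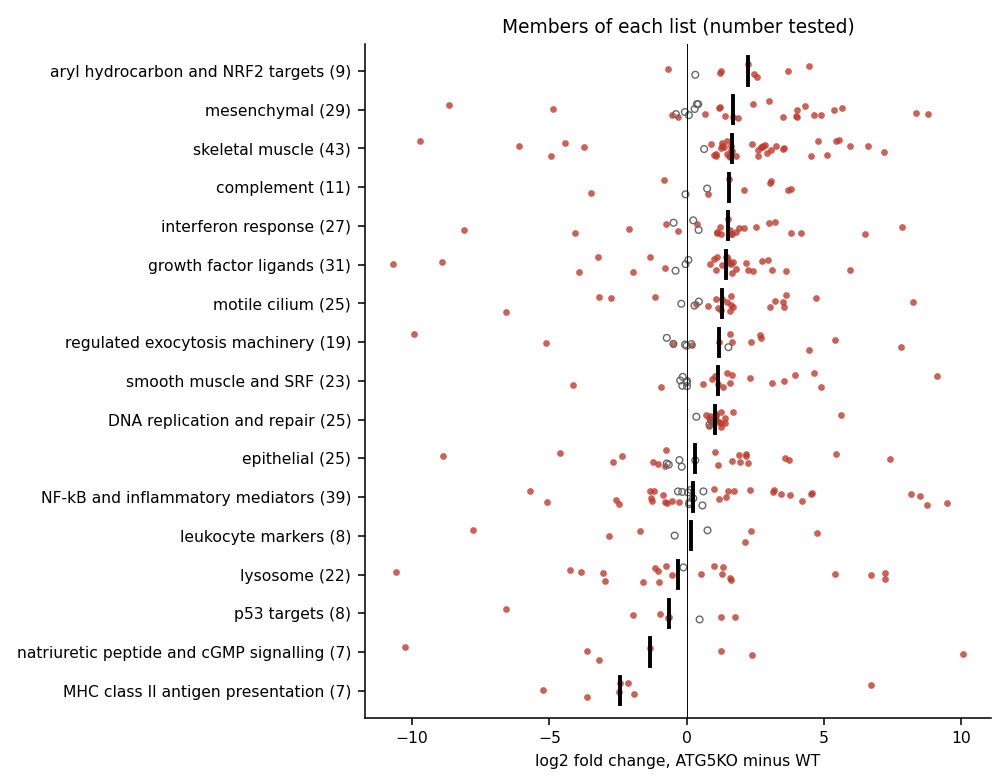
Log2 fold change of ATG5KO against WT (horizontal axis) for the tested members of 17 lists, with the number tested in brackets. Filled points passed the test, open points did not, and bars are medians, which run from -2.43 for MHC class II to 2.22 for aryl hydrocarbon and NRF2 targets against 0.01 over all genes tested and 1.06 over those with a symbol.

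MHC class II molecules present peptides from the endosomal route to CD4 T cells, the invariant chain Cd74 escorts them there, and RT1-DM exchanges the peptide. Of 7 genes tested in this group, 6 were lower in ATG5KO and 1 was higher, and with sets summed 3 and 1 were called. Among tested genes with a symbol 26.9% were called lower and 57.5% higher. RT1-Db1 (ENSRNOG00000033215), a class II beta chain, was at 17.91, 22.16, 12.49 and 11.09 CPM in WT and at 3.577, 4.439, 3.197 and 2.811 CPM in ATG5KO. Each ATG5KO library was below each WT library, by -2.15 ± 0.19 (SE) in log2 fold change (adjusted p = 1.7e-06, edgeR's quasi-likelihood test, and 0.0157 with sets summed). RT1-Ba, an alpha chain, was at 2.297, 3.013, 1.281 and 1.784 CPM in WT and at 0.09291, 0, 0.03592 and 0.09215 CPM in ATG5KO. RT1-Da, another alpha chain, was at 0.6757, 1.108, 1.807 and 2.069 CPM in WT and at 0.04645, 0.06936, 0.1437 and 0.1843 CPM in ATG5KO. None of these 3 genes overlapped between the genotypes, although levels of all but RT1-Db1 were low.

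Cd74 was at 3.142, 3.428, 2.826 and 3.424 CPM in WT and at 0.2787, 0.06936, 1.185 and 1.06 CPM in ATG5KO. The fall was larger in replicates 1 and 2 (-4.34 against -1.46 in log2 fold change), and with sets summed its adjusted p was 0.0845. RT1-DMb had an adjusted p of 0.0507 by that fit. VAMP7KO was lower still for RT1-Db1, at 0.181 to 0.5055 CPM, and the 2 knockout lines differed there (adjusted p = 9.48e-07, edgeR's quasi-likelihood test). The group's higher member was Ctss, the lysosomal protease cathepsin S that trims the invariant chain, at 0.9755, 1.248, 1.58 and 1.751 CPM in ATG5KO with a single count over the WT libraries. Class II genes are a family of similar sequences, so reads may be split among them. Fewer cells that express these genes and less RNA per cell cannot be told apart in bulk libraries, here or for any group described.

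Promoters of 3 class II genes are shown because these genes are known for a shared upstream module that ends in a Y box, an inverted CCAAT. Capitals mark CCAAT or its reverse complement ATTGG, which was in 37.5% of all promoters in the table. It was in all 6 of the matched members of the group, Ctss included.
RT1-Ba (chr20:4576807-4577106, plus strand): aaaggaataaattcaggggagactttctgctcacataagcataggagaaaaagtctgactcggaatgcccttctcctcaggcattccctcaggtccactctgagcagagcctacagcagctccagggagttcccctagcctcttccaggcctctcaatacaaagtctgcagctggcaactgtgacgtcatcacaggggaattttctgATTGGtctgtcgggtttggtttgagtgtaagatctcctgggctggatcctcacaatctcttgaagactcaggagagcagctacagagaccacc
RT1-Da (chr20:4515165-4515464, plus strand): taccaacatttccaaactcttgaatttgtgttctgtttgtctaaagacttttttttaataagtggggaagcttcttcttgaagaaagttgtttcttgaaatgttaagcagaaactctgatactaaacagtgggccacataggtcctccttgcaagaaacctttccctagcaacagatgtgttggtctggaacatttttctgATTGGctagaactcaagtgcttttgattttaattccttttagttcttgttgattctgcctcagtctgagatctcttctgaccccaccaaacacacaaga
RT1-Db1 (chr20:4560113-4560412, minus strand): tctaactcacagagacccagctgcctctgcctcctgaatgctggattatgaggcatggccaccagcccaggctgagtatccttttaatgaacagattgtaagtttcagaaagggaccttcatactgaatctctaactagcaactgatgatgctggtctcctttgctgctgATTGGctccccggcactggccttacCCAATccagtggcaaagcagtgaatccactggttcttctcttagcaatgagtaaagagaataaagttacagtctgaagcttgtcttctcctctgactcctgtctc
The ATTGG match began 43 bases before the start in RT1-Ba and 49 bases before it in RT1-Da, and RT1-Db1 held a match in each orientation, at 80 and 55 bases before the start.

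Of 27 interferon response genes tested, 19 were higher in ATG5KO, 5 were lower and 3 did not pass. Among tested genes with a symbol 57.5% were called higher and 26.9% lower. The listed genes had a median log2 fold change of 1.49, and 15 rises and 4 falls with sets summed. Their summed level did not follow these counts in replicates 1 and 2, where it was 661.2 and 656.8 CPM in WT and 623.8 and 587.2 CPM in ATG5KO. In replicates 3 and 4 it was 324.4 and 342.7 CPM in WT and 491.2 and 509.3 CPM in ATG5KO. The most abundant member, the ubiquitin ligase Rnf213, did not pass, with 442.7, 433.3, 205.6 and 220.9 CPM in WT and 254.9, 232, 201.1 and 220.6 CPM in ATG5KO, although it was called lower without WT replicate 3 or 4 (adjusted p = 0.0167 to 0.0289, edgeR's quasi-likelihood test). Tlr3, the endosomal sensor of double-stranded RNA, was at 21.69, 18.98, 12.98 and 10.95 CPM in WT and at 48.03, 44.42, 40.09 and 44.32 CPM in ATG5KO, a log2 fold change of 1.49 ± 0.13. Psmb9, a subunit of the immunoproteasome, rose by 1.11 ± 0.11, Sting1, the adaptor of cytosolic DNA sensing, by 2.54 ± 0.25, and Dhx58, a regulator of RNA sensing, by 3.81 ± 0.35. Slfn5, a member of the Schlafen family, was at 13.38, 9.016, 6.609 and 6.45 CPM in ATG5KO and at most 0.06926 CPM in WT. Oas3, a synthetase that activates RNase L, was at 1.394, 1.803, 1.257 and 0.7833 CPM in ATG5KO and at most 0.1014 CPM in WT, and Ifnlr1, the receptor chain for interferon lambda, was at 0.8323 to 1.858 CPM in ATG5KO with 1 count over the WT libraries.

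Mx1, the antiviral dynamin-like GTPase, went the other way. It was at 20.47, 19.67, 2.399 and 1.891 CPM in WT and at 0.04645, 0, 0 and 0.09215 CPM in ATG5KO, with a ratio of pooled counts of 370 (counting interval 126 to 1800). VAMP7KO had 0 to 0.4524 CPM, and the knockout lines did not differ by the test (adjusted p = 0.242, edgeR's quasi-likelihood test). Gvin1, a large interferon-inducible GTPase, fell by 4.08 ± 0.64 and Ifne, an epithelial interferon, by 2.09 ± 0.44.

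The promoters of Oas3 and Mx1 are shown as members that moved in opposite directions. Capitals mark GAAA repeated after any 2 bases, or TTTC repeated in the same way on the opposite strand, a core of the interferon-stimulated response element, found in 3.92% of all promoters. Of 22 list members with a promoter, 11 held it, of which 8 rose and 2 fell, and of the 11 without it 7 rose and 3 fell.
Oas3 (chr12:41439482-41439781, plus strand): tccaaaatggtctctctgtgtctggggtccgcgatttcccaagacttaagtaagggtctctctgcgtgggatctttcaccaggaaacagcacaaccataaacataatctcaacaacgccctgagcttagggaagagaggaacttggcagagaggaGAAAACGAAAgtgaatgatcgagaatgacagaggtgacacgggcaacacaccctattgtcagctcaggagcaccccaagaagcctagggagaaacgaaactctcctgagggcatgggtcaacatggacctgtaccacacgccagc
Mx1 (chr11:50294557-50294856, minus strand): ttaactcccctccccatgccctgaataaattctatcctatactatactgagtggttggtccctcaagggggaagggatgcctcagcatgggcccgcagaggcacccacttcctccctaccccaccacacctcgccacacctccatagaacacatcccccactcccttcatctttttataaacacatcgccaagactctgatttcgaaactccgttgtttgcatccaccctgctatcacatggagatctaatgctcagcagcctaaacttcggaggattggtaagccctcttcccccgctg
The match in Oas3 began 95 bases before the start, and no match was in the Mx1 window.

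Inflammatory mediators and targets of NF-kB moved in both directions, with 17 of 39 higher, 13 lower and 9 not passing. The shares higher and lower were 57.5% and 26.9% among tested genes with a symbol. For the listed genes, 12 rises and 5 falls were called with sets summed. Vcam1, the adhesion molecule for leukocytes, was at 10.57, 9.904, 9.2 and 9.06 CPM in WT and at 270.8, 260.5, 200.3 and 190.5 CPM in ATG5KO, a log2 fold change of 4.56 ± 0.14 (adjusted p = 2.75e-10, edgeR's quasi-likelihood test, and 0.00155 with sets summed). Ptgs2, the inducible cyclooxygenase, was at 38.7, 43.56, 20.83 and 21.56 CPM in ATG5KO and at most 0.1039 CPM in WT, a ratio of pooled counts of 459 (counting interval 233 to 1060). Cxcl12, the ligand of CXCR4, was at 39.53, 35.58, 9.806 and 9.077 CPM in ATG5KO and at most 0.1731 CPM in WT. Together with Ccl21, these genes were higher in every ATG5KO library than in any WT or VAMP7KO library.

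Lower members were the collagenase Mmp13, the cytokines Il15 and Il6 and the lipopolysaccharide co-receptor Cd14. Mmp13 was at 33.82, 33.63, 2.826 and 2.39 CPM in WT and at 0.3252, 0.3468, 0.1796 and 0.3225 CPM in ATG5KO, with log2 fold changes of -6.64 and -3.40 in the sets. Il6 fell by 1.32 ± 0.16 and Cd14 by 1.25 ± 0.15. The most abundant member, the stromelysin Mmp3, did not pass, at 126.4, 122.4, 534 and 492.8 CPM in WT and 142.9, 155.3, 1104 and 1085 CPM in ATG5KO, and its effect differed between the sets (adjusted p = 1.3e-05, edgeR's test of the interaction).

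Complement genes rose in 7 of 11 cases and fell in 2, beside 57.5% and 26.9% of tested genes with a symbol. With sets summed 5 rises and 2 falls were called. The serine protease C1s was at 340.2, 298.1, 196.4 and 193.5 CPM in WT and at 724.5, 602.4, 902.3 and 869.1 CPM in ATG5KO, and Masp1, a protease of the lectin pathway, rose by 2.09 ± 0.21. Regulators of the cascade moved in both directions. Cd59, which blocks the membrane attack complex, fell by 0.80 ± 0.10. Cfi, the protease that cleaves C3b, rose by 3.80 ± 0.46 from a low level.

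Of tested genes with a symbol, 57.5% were called higher, with a median log2 fold change of 1.06. Growth factor and cytokine ligands rose in 21 of 31 cases and fell in 7 (17 and 5 with sets summed), with a median log2 fold change of 1.45. Their summed level was steady over the sets, at 358.6 to 375.2 CPM in WT and 847.4 to 877.9 CPM in ATG5KO. Fgf10, a mesenchymal ligand for epithelial FGF receptors, was at 33.41, 35.29, 54.12 and 45.73 CPM in WT and at 113.3, 102.6, 120.7 and 127.9 CPM in ATG5KO, a log2 fold change of 1.49 ± 0.10. Fgf7, another ligand of this kind, rose by 1.80 ± 0.15, Adm, the vasodilator peptide adrenomedullin, by 1.45 ± 0.15, and Artn, a ligand of the GDNF family, by 3.13 ± 0.24. Edn1, the vasoconstrictor endothelin, rose by 2.96 ± 0.30 and Bmp4 by 2.44 ± 0.31. Ntf3, a neurotrophin, was at 1.892, 2.112, 2.399 and 2.497 CPM in WT and had no count in ATG5KO, at least 18.2-fold lower. Wnt7a was at 6.149, 5.991, 6.144 and 7.526 CPM in WT and at 1.022, 0.3121, 0.2873 and 0.1843 CPM in ATG5KO, and Wnt5b, of the same family, rose by 3.61 ± 0.55, although from and to low levels.

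Signalling by natriuretic peptides and cGMP had 7 genes tested, 3 higher and 4 lower, or 2 and 2 with sets summed. Tested genes with a symbol were called higher in 57.5% and lower in 26.9% of cases. Npr2, the guanylyl cyclase receptor for C-type natriuretic peptide, was at 21, 16.82, 9.878 and 9.261 CPM in ATG5KO with 1 count over the 4 WT libraries and none in VAMP7KO, a ratio of pooled counts of 1650 (counting interval 296 to 65400). Kcnmb2, a regulatory subunit of the calcium-activated potassium channel, was at 3.784, 3.913, 7.689 and 7.526 CPM in WT and had no count in ATG5KO, at least 46.8-fold lower. The phosphodiesterases Pde1a, Pde1b and Pde1c were called lower, but the libraries of the genotypes overlapped for Pde1b and Pde1c, and neither passed with sets summed (adjusted p = 0.11 and 0.0863, edgeR's quasi-likelihood test), nor Pde1c without the block (adjusted p = 0.193). Pde11a, of the same family, was higher, from 4.595, 3.705, 7.721 and 8.918 CPM to 8.64, 11.44, 21.3 and 18.57 CPM, where the WT and ATG5KO libraries overlap across sets but not within them.

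Targets of the aryl hydrocarbon receptor and of NRF2, which encode enzymes that detoxify electrophiles and foreign compounds, rose in 7 of 9 cases tested, with 1 lower and a median log2 fold change of 2.22. The listed genes Cyp1a1, Ahrr and Akr1c3 did not pass the filter on low counts and were not tested. Among tested genes with a symbol 57.5% were called higher, with a median of 1.06. With sets summed 5 rises and 1 fall were called. Aldh3a1, an aldehyde dehydrogenase, was at 6.419, 7.203, 5.914 and 5.03 CPM in WT and at 226.9, 213.2, 67.24 and 69.39 CPM in ATG5KO, a log2 fold change of 4.45 ± 0.42. VAMP7KO was at 4.796 to 10.69 CPM, so the ATG5KO libraries were the high ones. Ptgr1, a reductase of prostaglandins and leukotrienes, was at 14.09, 15.83, 91.67 and 97.1 CPM in WT and at 98.39, 129.1, 449.1 and 438 CPM in ATG5KO, higher in each set. Akr1c14, an aldo-keto reductase, rose by 3.69 ± 0.35. It was also high in VAMP7KO, at 43.14, 52.43, 5.416 and 4.236 CPM, and did not differ between the knockout lines (adjusted p = 0.269, edgeR's quasi-likelihood test). Bach1, a repressor of NRF2 targets, fell by 0.68 ± 0.12.

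Lysosomal genes moved in both directions, with 10 of 22 higher, 11 lower and 1 not passing, and with 7 rises and 10 falls called with sets summed. Tested genes with a symbol were called higher in 57.5% and lower in 26.9% of cases, so the share of falls here was the larger. The median log2 fold change of the lysosomal genes was -0.32, against 1.06 over tested genes with a symbol. Gm2a, an activator protein of ganglioside breakdown, was at 178.5, 200.7, 134.7 and 133.7 CPM in WT and at 442.4, 471.8, 326.2 and 324.4 CPM in ATG5KO. Its groups did not overlap, and it rose by 1.27 ± 0.08 in log2 fold change, with 1.25 and 1.28 in the sets. Hpse, the heparan sulfate endoglycosidase, fell by 0.52 ± 0.07. The transporter Slc37a2, typical of macrophages and osteoclasts, was at 43.67, 24.24, 12.03 and 10.87 CPM in ATG5KO and at most 0.214 CPM in WT. Tfec, a relative of the lysosomal regulator TFEB, was at 13.85, 10.98, 1.774 and 2.461 CPM in WT and had no count in ATG5KO, at least 59.4-fold lower, nor in VAMP7KO. The lysosomal amino acid transporter Slc36a4 fell by 4.26 ± 0.48.

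Among genes of regulated exocytosis, 10 of 19 rose, 3 fell and 6 did not pass, and 7 rises and 2 falls were called with sets summed. The share called higher among tested genes with a symbol was 57.5%. Rab27a, the GTPase that docks secretory lysosomes and multivesicular bodies at the plasma membrane, was at 0.3378, 0.2424, 0.03286 and 0.07134 CPM in WT and at 3.67, 4.508, 3.843 and 2.442 CPM in ATG5KO, a log2 fold change of 4.45 ± 0.42 (adjusted p = 2.86e-06, edgeR's quasi-likelihood test, and 0.0114 with sets summed). All ATG5KO libraries were above all WT libraries. Exph5, an effector of RAB27 also called SLAC2-B, was at 10.78, 9.606, 3.771 and 3.778 CPM in ATG5KO and at most 0.4054 CPM in WT, and Sytl1, a synaptotagmin-like effector of RAB27, rose by 2.72. VAMP7KO had at most 0.09048 CPM of Rab27a and 0.4678 CPM of Exph5. Chmp4c, a subunit of the ESCRT-III membrane-scission complex, was at 16.63, 18.73, 13.72 and 16.36 CPM in ATG5KO and at most 0.1351 CPM in WT. Rims2, a scaffold of the active zone, was at 6.385, 7.653, 2.3 and 1.998 CPM in WT and had no count in ATG5KO, at least 37.5-fold lower, and Exoc3, a subunit of the exocyst, had a log2 fold change of 0.00 ± 0.09.

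DNA replication and repair genes are induced by proliferating cells before and during S phase. Of the 25 tested, 22 were called higher and none lower, beside 57.5% and 26.9% of tested genes with a symbol. The median log2 fold change was 1.04 over both sets together, but it was 0.13 in replicates 1 and 2 and 1.88 in replicates 3 and 4. The interaction of genotype and set was called for 21 of the 25, against 30.7% of tested genes with a symbol, 6 were called higher in both sets alone, and 4 were called with sets summed. Their summed level in WT was 929.1 and 925.2 CPM in replicates 1 and 2 and 661.3 and 655.9 CPM in replicates 3 and 4. In ATG5KO it was 1092, 1351, 2139 and 2075 CPM.

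Tk1, the thymidine kinase of the salvage pathway, was higher in both sets, at 119.2, 116, 73.37 and 79.76 CPM in WT and 244, 304, 233.9 and 221.2 CPM in ATG5KO. Its log2 fold change was 1.39 ± 0.12 (adjusted p = 1.25e-06, edgeR's quasi-likelihood test, and 0.00764 with sets summed). Pola2, a subunit of DNA polymerase alpha, was at 64.05, 68.39, 63.55 and 65.46 CPM in WT and at 68.38, 79.83, 188.8 and 189 CPM in ATG5KO. The pattern of Pola2, with ATG5KO high in replicates 3 and 4 alone, was shared by Atad2, Brca1 and Cdc6, whose log2 fold changes were -0.00, 0.10 and 0.02 in replicates 1 and 2 and 1.67, 2.68 and 2.15 in replicates 3 and 4. Atad2 was not called without WT replicate 3 or 4 (adjusted p = 0.0654 to 0.0658, edgeR's quasi-likelihood test), and with sets summed the adjusted p was 0.138 for Pola2. Asf1b, a histone chaperone, was at 57.03, 54.82, 9.594 and 8.918 CPM in WT and at 80.88, 106.1, 68.43 and 61.19 CPM in ATG5KO, so the low libraries were those of WT replicates 3 and 4.

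Of 8 tested targets of p53, 2 rose and 5 fell, and 2 rises and 3 falls were called with sets summed. The shares higher and lower were 57.5% and 26.9% among tested genes with a symbol. Cdkn1a, the cyclin-dependent kinase inhibitor p21, was at 164.2, 168.3, 175.3 and 175.5 CPM in WT and at 105.5, 101.7, 118.4 and 110.7 CPM in ATG5KO, with no overlap and a log2 fold change of -0.65 ± 0.10, although the adjusted p was 0.0567 with sets summed. Ccng1, a cyclin induced by p53, fell by 0.96 ± 0.14. Fdxr, the mitochondrial ferredoxin reductase, was at 8.311, 9.35, 8.674 and 9.774 CPM in WT and at 33.45, 38.22, 28.56 and 22.67 CPM in ATG5KO, higher in every ATG5KO library than in any WT library.

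**Figure D4:**
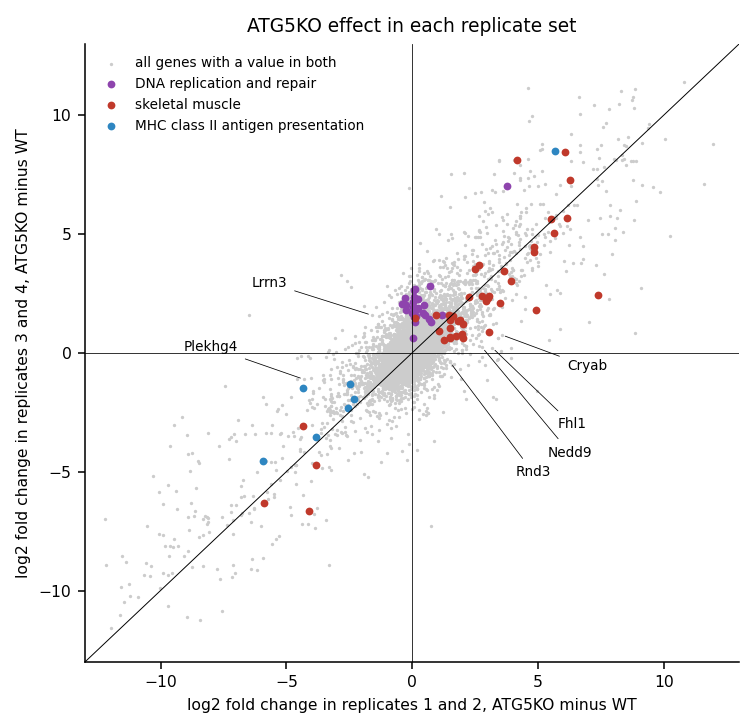
Log2 fold change of ATG5KO against WT in replicates 1 and 2 (horizontal axis) and in replicates 3 and 4 (vertical axis), each from a fit of that set alone, for all genes with a value in both. Genes of DNA replication and repair (purple) have a median of 0.13 on the horizontal axis and 1.88 on the vertical, skeletal muscle genes (red) have medians of 2.04 and 1.60, MHC class II genes (blue) have medians of -2.56 and -1.96, and the 6 genes with the smallest p of the interaction are named.

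**Figure D5:**
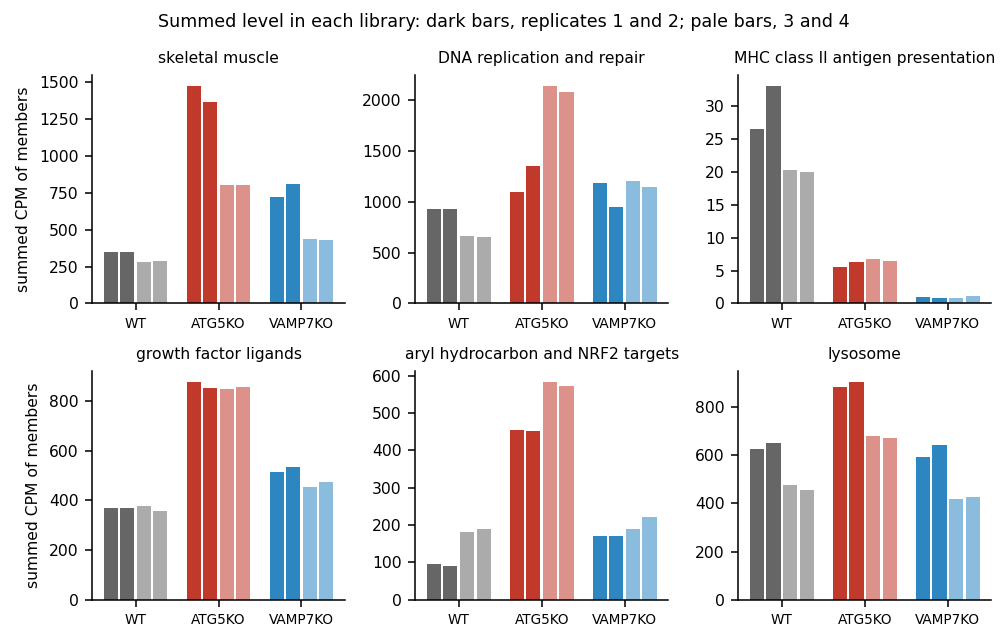
Summed level of the tested members of 6 lists in each library, in CPM, for WT, ATG5KO and VAMP7KO, with dark bars for replicates 1 and 2 and pale bars for 3 and 4. ATG5KO is above WT in both sets for skeletal muscle, growth factor ligands and aryl hydrocarbon and NRF2 targets and below it for MHC class II, and the excess in replication genes is largest in replicates 3 and 4.

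Genes of the motile cilium, the beating form with dynein arms, rose in 18 of 25 cases and fell in 4, with 9 rises and 3 falls called with sets summed. The share called higher among tested genes with a symbol was 57.5%. Cfap100, an axonemal protein, was at 1.723, 2.597, 0.46 and 0.7848 CPM in WT and at 39.07, 25.42, 4.741 and 6.819 CPM in ATG5KO, and Dydc1, a protein of sperm, had no count in WT and 1.44, 1.561, 0.9339 and 1.705 CPM in ATG5KO, at least 13.7-fold higher. Dnaaf3, an assembly factor of dynein arms, fell by 2.74 ± 0.45. Most of these transcripts were at low levels in both genotypes, with a summed level of 48.58 to 84.09 CPM in WT and 99.67 to 154.7 CPM in ATG5KO.

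Leukocyte markers were tested as a sign of other cells. Of the 8 tested, 3 were higher, 3 lower and 2 did not pass (1 higher and 2 lower with sets summed), beside 57.5% higher and 26.9% lower among tested genes with a symbol. Their summed level was 29.26, 27.46, 7.097 and 6.92 CPM in WT and 19.74, 18.69, 17.24 and 16.49 CPM in ATG5KO. ATG5KO was thus below WT in replicates 1 and 2 and above it in replicates 3 and 4. Ptprc, the pan-leukocyte phosphatase CD45, averaged 7.70 CPM in WT and 0.026 CPM in ATG5KO, and had no count in VAMP7KO. The T cell chain Cd3e was at 0.31 and 0.22 CPM in the means of WT and ATG5KO and did not pass. Lcp1, an actin-bundling protein of blood cells, rose by 4.76 ± 0.64. The part of such cells in the falls of class II genes and of Mx1 was not tested.

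The knockout lines share their WT libraries, so they were compared with each other directly. ATG5KO and VAMP7KO differed for 6289 genes (47.9%), and 1502 of the 1905 genes changed at least 2-fold in ATG5KO differed from VAMP7KO, 966 of them higher and 536 lower in ATG5KO than in WT. Among tested genes with a symbol the share was 78.6%. For skeletal muscle genes 34 of 43 differed between the lines, and the median log2 fold change against WT was 1.64 in ATG5KO and 0.32 in VAMP7KO. For interferon genes these medians were 1.49 and -0.69, with 22 of 27 differing between the lines. For class II genes they were -2.43 and -5.39, with 5 of 7 differing, and for DNA replication genes 1.04 and 0.45, with 13 of 25 differing. Epithelial genes had medians of 0.32 in ATG5KO and -1.51 in VAMP7KO, with 20 of 25 differing. Lamb3 was low in both lines, at 8.98 to 11.76 CPM in ATG5KO and 10.46 to 16.03 CPM in VAMP7KO, and the lines did not differ by the test (adjusted p = 0.28, edgeR's quasi-likelihood test).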

How the data were processed

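NRK cells of 3 genotypes (WT, ATG5KO, VAMP7KO) were profiled by RNA-seq in 12 libraries, 4 per genotype, each made from 600 ng of total RNA with a stranded poly(A) kit and 50 base reads. Per the submitters' methods and processing notes, the authors trimmed reads with cutadapt 4.2, removed rRNA reads with bowtie 2.2.8, mapped with STAR 2.7.10b to mRatBN7.2 and used htseq-count 0.13.5 to count reads on the genes of Ensembl release 110. The deposited values are raw read counts per gene, and how reads with several hits were treated is not given in the sources used here.

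Genotype and replicate number were taken from the labels. Counts were tested with edgeR 4.0.16 (R 4.3.3), the quasi-likelihood test with TMM normalization, on genes kept by filterByExpr, in all 12 libraries with genotype and replicate set as terms, and p-values were adjusted over the 13141 genes by the Benjamini-Hochberg method. The limits were an adjusted p of 0.05 and, where stated, 2-fold. Levels are CPM scaled by TMM. Each error of a log2 fold change is its size over the square root of F. The floor was 3 counts per library, and bounds and counting intervals (95%, exact) address counting error alone. The intervals pool the reads of the 4 libraries of a genotype and leave out the spread between libraries. PCR copies of a molecule were counted separately, so the intervals may be too narrow for counting error as well. Deviations of equally numbered ATG5KO and WT libraries from their genotype means correlated at 0.657 to 0.679 and those of other libraries of the same set at 0.614 to 0.677, so the numbers pair libraries through the set. Simulated counts with 100 genes changed 2-fold gave 92 calls, and 98 of 100 at 4-fold, with 10 unchanged genes called. The simulated libraries were drawn independently, with the same set shift in every genotype and few genes changed. The data differ in each of these, so the 10 calls do not measure the error rate of the calls given here.

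Symbols were taken from the study's lists of changed genes by Ensembl ID. Members of the 17 lists and of the leukocyte markers, and the comparisons, were chosen with earlier results of these data known. Named genes are the 10 highest and 10 lowest log2 fold changes (called, at least 1 CPM, same direction in all pairs), from each list the 4 most abundant members and the 3 highest and 3 lowest called ones, the 6 with the smallest interaction p, and Vamp7, 154 in all. Other list members given with values (Cdh15, Ryr1, Mymx, Acta2, Cdh2, Sting1, Dhx58, Il6, Cd14, Edn1, Bmp4, Sytl1, Brca1, Cdc6, Ptprc, Cd3e and Lcp1) were chosen after their values were seen. Promoters, from RefSeq's GRCr8 tables, were found for 112 of the 154. Some named genes are not reported here. Alternatives were DESeq2 1.42.0, its size factors, other filters, no block, the number as block, the 8 libraries alone, each set alone, summed sets and each library left out.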

Additional observations from a re-analysis of the deposited data

Results flagged for a closer look

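In a group of 4 libraries, a library was looked at again when its gap to the nearest other took more of the range of the group than Dixon's critical value at the 95% level, a limit that chance passes in about 1 of 20 groups. Over the 253 groups looked at it was passed 11 times, no more than the 13 or so that chance would give. In ATG5KO the highest library stood apart for Cryab (307.9 CPM), Lrrn3 (40.44 CPM), Meox1 (3.391 CPM), Rprm (0.3468 CPM), Smad9 (3.556 CPM) and Wnt7a (1.022 CPM), and the lowest for Mmp13 (0.1796 CPM) and RT1-DMb (0.2774 CPM). In WT the highest library stood apart for Catip (0.2424 CPM), Rab3il1 (8.739 CPM) and Wnt7a (7.526 CPM).

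The ATG5KO effect differed between the replicate sets most clearly for 6 named genes, by edgeR's quasi-likelihood test of the interaction. Lrrn3, a leucine-rich repeat membrane protein, was at 113.2, 101.9, 10.28 and 10.81 CPM in WT and at 31.82, 40.44, 31.68 and 31.24 CPM in ATG5KO, so it was lower in ATG5KO in replicates 1 and 2 and higher in replicates 3 and 4 (difference of the log2 fold changes 3.15, adjusted p = 7.86e-10). For Rnd3, the difference was -1.93 (adjusted p = 8.83e-10), with WT at 71.89, 67.49, 240.2 and 235.6 CPM and ATG5KO at 197.6, 204.4, 182.3 and 178 CPM. Plekhg4 had a difference of 3.16 (adjusted p = 6.51e-10), with WT at 178, 177.4, 17.25 and 16.94 CPM. Fhl1 had -2.98 (adjusted p = 1.55e-11), Cryab had -2.82 (adjusted p = 2.88e-09) and Nedd9 had -2.56 (adjusted p = 6.51e-10), each with a rise in ATG5KO that was smaller in replicates 3 and 4. For Lrrn3, Rnd3, Plekhg4 and Cryab the WT libraries of the sets lay further apart than those of ATG5KO, while for Fhl1 and Nedd9 the sets moved in opposite directions in the genotypes, with Fhl1 at 65.61, 69.02, 184.7 and 188.1 CPM in WT and at 653.6, 584.6, 218.4 and 215.8 CPM in ATG5KO. What the sets are is not in the labels, and what moved with them was not tested.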

How the results depend on the processing

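With no replicate block, 3102 genes changed in ATG5KO and 2997 differed between ATG5KO and VAMP7KO, and with sets summed these counts were 2101 and 1976. The counts stayed within 1.5 times those given under the DESeq2 Wald test and size factors, both other filters, the number as block, the 8 libraries alone and, for ATG5KO against WT, each set alone. With each library left out in turn, 5719 to 6742 genes changed, 1857 to 2010 changed at least 2-fold, 2647 to 4220 had an effect that differed between the sets and 5634 to 6373 differed between the knockout lines. The interaction could not be fitted with sets summed. Of 142 named genes called, 125 kept the call with no replicate block, 114 with sets summed, and 138 to 142 with a library left out, where Atad2, Cdhr5, Col6a2, Dnah7, Nedd9, Rfx2 and Vamp7 lost it at least once without a WT or ATG5KO library (adjusted p = 0.0518 to 0.12, edgeR's quasi-likelihood test). Ppl, Rnf213 and Tpm4 passed with a library left out (adjusted p = 0.0167 to 0.0402). In replicates 1 and 2 alone the log2 fold change turned for Atad2 (-0.004469) and Ccn1 (0.64), and in replicates 3 and 4 alone for Col6a1 (0.10), Exoc3 (-0.17), Lrrn3 (1.58) and Rnd3 (-0.40), each with a call in at least 1 of the fits. With no call in either fit, it also turned for Tpm4 in replicates 1 and 2 (0.027) and for Ppl (-0.023) and Rab7b (-0.011) in replicates 3 and 4, and for Ccn1, Col6a1, Exoc3 and Lrrn3 under other alternatives. The cause was not tested. Depth limits genes under about 0.1 CPM, where a library holds 3 counts or fewer.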
